A study of Mus musculus domesticus and Mus musculus domesticus x Mus musculus castaneus and Mus musculus castaneus with 27 samples.

Results

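The 44 collagen genes of the mouse were followed in pluripotent stem cells (PSC) and in motor neurons (MN) made from such cells in culture. They are all protein-coding genes of the count table whose symbol is Col, a number, the letter a and a second number, and make up 44 of 27071 gene identifiers. By textbook class, 11 were fibrillar collagens, 8 were collagens of basement membranes and 25 were of other types. The study sequenced polyadenylated RNA to describe the transcriptional identity of lines from several mouse strains. MN libraries comprised 2 of 129S6/SvEv (129), 1 of CAST/EiJ (CAST), 3 of the CAST and 129 hybrid labelled CAS129, 1 of the hybrid labelled 129CAS and 7 of C57BL/6J (BL6). PSC libraries comprised 2 of CAS129, 2 of CAST and 2 of BL6. No treatment and no engineered allele is given for any of them, and the labels do not state which parent of a hybrid was the mother or how many clones stand for a line. Total counts were 5.613 to 44.57 M in MN and 4.498 to 13.62 M in PSC, with the 2 deepest libraries both from 129 MN. RNA of MN and PSC was extracted with different kits per the labels' protocols, so extraction and cell type cannot be told apart. Hybrid libraries stand apart in the table: 433 genes at 1 CPM or more in each of the 14 other libraries had no count in any of the 6 hybrid libraries, against 1 gene the other way round. No collagen gene was among the 433, and how the hybrid columns were counted was not given in the sources used here. CPM are counts scaled to a common library total with TMM factors.

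Collagens are secreted proteins whose chains wind around each other into a triple helix, held by a repeat of glycine followed by a pair of other residues. Fibrillar collagens form the ropes of connective tissue, type IV collagens form the sheet-like network of basement membranes, and the other types coat fibrils, anchor epithelia, build beaded filaments or span the cell membrane. In spinal nerve and muscle they are known from the connective tissue around axons and from the basement membrane at the synapse, while a few membrane-spanning types are made by neurons.

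The classes differ in how long the glycine repeat runs unbroken, which is visible in the coding sequence because every glycine codon starts with GG. In the longest annotated coding sequence of each gene, the longest unbroken run of such triplets had a median of 338 in fibrillar collagens (216 to 344), against 41 in basement membrane collagens (30 to 66) and 52 in the other types (23 to 113). Coding exons of exactly 54 bases, a unit typical of fibrillar genes, numbered a median of 29 per fibrillar gene, 2 per basement membrane gene and 3 per gene of other types. The exons printed here illustrate the contrast for the 4 chains that gave most collagen reads in BL6 MN. They were picked for it and are no test of it. Each type I exon is the first of 54 bases that opens with GG inside the longest unbroken run. Each type IV exon is the first of suitable length in which the spacing breaks. They are from GENCODE M21 on GRCm38, written 5′ to 3′ on the coding strand with codons that start with GG in capitals. Col1a1 is coding exon 8 of 51 (chr11:94939904-94939957, + strand), Col1a2 is coding exon 8 of 52 (chr6:4515481-4515534, + strand), Col4a1 is coding exon 9 of 52 (chr8:11244486-11244569, - strand) and Col4a2 is coding exon 12 of 47 (chr8:11408052-11408144, + strand).
Col1a1: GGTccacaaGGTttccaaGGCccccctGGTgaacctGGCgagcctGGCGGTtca
Col1a2: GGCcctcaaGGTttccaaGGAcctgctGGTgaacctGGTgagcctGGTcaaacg
Col4a1: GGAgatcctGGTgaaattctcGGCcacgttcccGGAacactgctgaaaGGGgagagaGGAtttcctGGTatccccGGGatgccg
Col4a2: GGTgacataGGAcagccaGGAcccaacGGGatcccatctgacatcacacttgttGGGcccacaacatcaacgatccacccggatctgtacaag
In the type I exons a GG codon opens each triplet of codons, and in the type IV exons the spacing is interrupted, as the choice of exons required.

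The genes lie on many chromosomes, and the type IV genes lie in head-to-head pairs. Col1a1 (ENSMUSG00000001506) lies on chromosome 11 from 94936224 to 94953042 and Col1a2 (ENSMUSG00000029661) on chromosome 6 from 4504814 to 4541544. Col3a1 (ENSMUSG00000026043, 45311538 to 45349706) and Col5a2 (ENSMUSG00000026042, 45374321 to 45503282) are neighbours on chromosome 1. Col4a1 (ENSMUSG00000031502, 11198423 to 11312826) and Col4a2 (ENSMUSG00000031503, 11312805 to 11449287) meet on chromosome 8 and share 22 bases of exon on opposite strands. Col4a4 and Col4a3 also lie head to head on chromosome 1, and Col4a6 and Col4a5 on chromosome X, but neither of these pairs overlaps. How the counting treated strand was not given in the sources used here. Exon overlap with another gene covered 6.1% of Col9a3 exon sequence, where Tcfl5 lies on the opposite strand, and 5.6% of Col4a3 exon sequence, where C430014B12Rik lies.

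Collagen genes took 1.04% to 4.12% of all counts in the 14 MN libraries, against 0.117% to 0.498% in the 6 PSC libraries, and no MN library reached down to the PSC range. Within MN the share was 1.60% and 1.04% in 129, 1.403% in CAST (95% Wilson interval 1.395% to 1.41%), 2.95% to 3.31% in CAS129, 1.088% in 129CAS (1.084% to 1.092%) and 2.25% to 4.12% in BL6. These intervals cover counting error only. A few chains carried most of it: Col1a1, Col1a2, Col4a1 and Col4a2 were the leading chains in all 7 BL6 MN libraries and gave 62.8% to 74.6% of their collagen counts. Compared per kilobase of exon, in CPM, Col1a1 was highest in BL6 MN at 1114, followed by Col4a1 at 722, Col4a2 at 500.3, Col1a2 at 351 and Col5a1 at 233. In BL6 PSC the order began with Col1a1 at 96.3, Col18a1 at 76.7 and Col1a2 at 26.2 CPM per kilobase. With the longest annotated transcript as the length, Col1a2 stood second in BL6 MN at 816 CPM per kilobase, beside Col4a1 at 814.

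**Figure D1:**
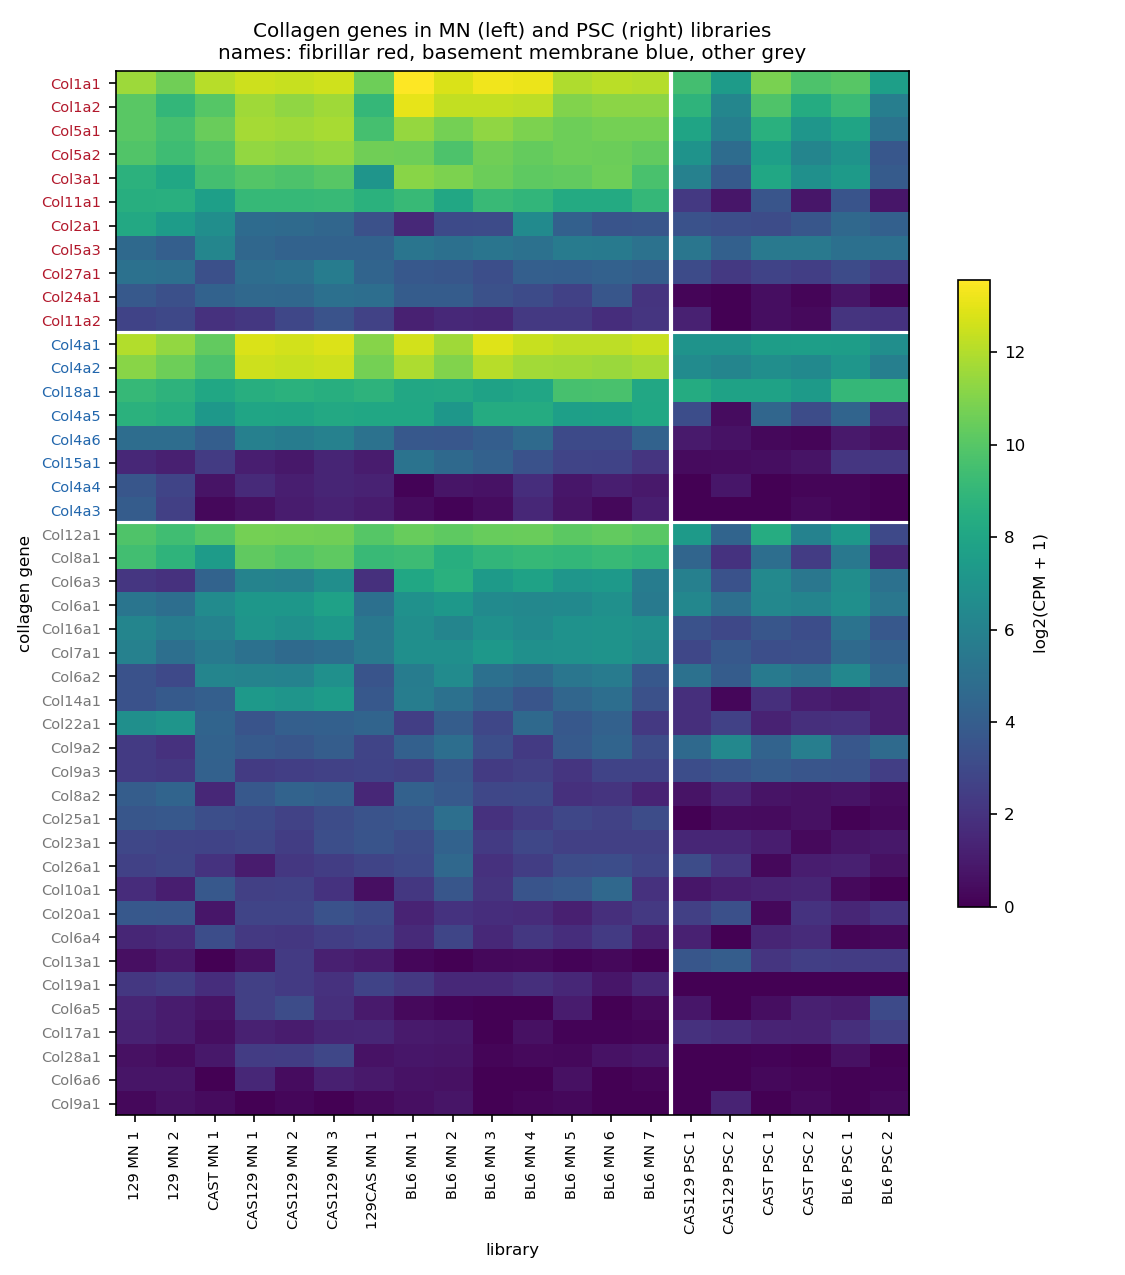
Levels of the 44 collagen genes (rows) in the 14 MN libraries (left) and 6 PSC libraries (right) as log2(CPM + 1). Fibrillar genes are at the top, basement membrane genes below them and other types at the bottom. The brightest cells are Col1a1, Col1a2, Col4a1 and Col4a2 in MN, and Col18a1 is of like brightness on both sides.

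MN and PSC were compared over 11 MN and 6 PSC libraries (CAST, CAS129 and BL6) by edgeR's quasi-likelihood test, in a model that also held genotype, with Benjamini-Hochberg adjustment over all genes tested. Of 44 collagen genes 43 were tested, and 28 rose and 3 fell in MN. Of these 28, 6 reached the 1 CPM needed for testing in MN libraries only, namely Col19a1, Col24a1, Col25a1, Col28a1, Col4a3 and Col4a4, so their rise is a description. Over all genes tested 74.6% were called, 36.1% as higher and 38.5% as lower, so a call as such was the common case. Without all CAS129 libraries, 30 collagens and 71.8% of all genes were called. The median log2 fold change was 2.66 over the 43 collagen genes, the 6 above included, and -0.05 over all genes tested. In 18 of 43 collagen genes every one of the 14 MN libraries lay above every one of the 6 PSC libraries, and in 0 of 43 below, beside 18.1% and 11.8% of all 15849 genes that reached 1 CPM in 2 of the 20 libraries. The 18 include Col19a1, Col24a1 and Col25a1, which reached 1 CPM in MN libraries only, so their separation is a description. Col9a1 was not tested, with levels of at most 0.711 CPM in MN and at most 1.56 CPM in PSC.

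Of the 11 fibrillar collagens 8 rose in MN and 3 were not called. Col1a1, the main chain of type I collagen, had 4465 CPM in CAST MN, 5861, 5598 and 6103 CPM in CAS129 MN and 4008 to 12130 CPM in the 7 BL6 MN libraries (median 7229), against 729 and 176 CPM in CAS129 PSC, 1800 and 889 CPM in CAST PSC and 1066 and 198 CPM in BL6 PSC. All MN libraries of these 3 genotypes were above all PSC libraries, and the log2 fold change was 3.14 (SE 0.52, adjusted p = 3.05e-05). Col1a2, the second chain of type I, rose with a log2 fold change of 3.03 (SE 0.70, adjusted p = 0.000879). Col3a1, the fibrillar collagen of elastic tissues, rose by 3.81 (SE 0.60), and Col5a1 and Col5a2, whose type V chains start and limit fibril growth, rose by 3.68 (SE 0.51) and 4.19 (SE 0.55).

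The largest fibrillar changes were in the minor chains Col11a1 and Col24a1, the latter at 1 CPM in MN libraries only. Other minor chains changed less. Col11a1, a type XI chain that nucleates thin fibrils, had 204 CPM in CAST MN, 545, 548 and 574 CPM in CAS129 MN and 275 to 584 CPM in BL6 MN (median 479.8), against 3.76 and 0.782 CPM in CAS129 PSC, 10.9 and 0.752 CPM in CAST PSC and 10.6 and 0.775 CPM in BL6 PSC. The groups did not overlap, and the log2 fold change was 6.38 (SE 0.69, adjusted p = 2.28e-07). Col24a1 rose by a log2 of 5.32 (SE 0.56) and Col27a1 by 1.48 (SE 0.31), both minor fibrillar types. Col2a1, the cartilage collagen, was not called, with a log2 fold change of 0.99 (SE 0.64, adjusted p = 0.169). Its MN libraries spread from 1.95 CPM in one BL6 library to 294 CPM in one 129 library, around the PSC range of 7.77 to 23.0 CPM. Col5a3 and Col11a2 were not called either.

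Among basement membrane collagens 7 of 8 rose. Col4a1, which with Col4a2 forms the network common to nearly all basement membranes, had 1272 CPM in CAST MN, 7074, 6338 and 7270 CPM in CAS129 MN and 3231 to 7558 CPM in BL6 MN (median 5458), against 122 and 124 CPM in CAS129 PSC, 184 and 196 CPM in CAST PSC and 186 and 103 CPM in BL6 PSC. The lowest MN library was several times above the highest PSC library, with a log2 fold change of 4.94 (SE 0.42, adjusted p = 1.28e-08) for Col4a1 and 5.01 (SE 0.41, adjusted p = 8.68e-09) for Col4a2. Col4a5 and Col4a6, the X-linked chains of more specialised membranes, rose by 4.56 (SE 0.59) and 5.05 (SE 0.43). Col4a6 was far lower in level, at 7.12 to 24.6 CPM in BL6 MN against 0.933 and 0.543 CPM in BL6 PSC.

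Col4a3 and Col4a4, the partner chains of Col4a5 in kidney and lung membranes, rose by 2.84 (SE 0.90, adjusted p = 0.00881) and 2.72 (SE 0.76, adjusted p = 0.00377), from levels of at most 0.782 CPM in PSC. With the PSC libraries numbered 2 alone as the PSC group, neither was called (adjusted p = 0.0669 for Col4a3 and 0.0531 for Col4a4), and Col4a3 was not called without the CAS129 libraries (adjusted p = 0.0812). Col15a1, of the endostatin-bearing collagens, rose by 2.06 (SE 0.52, adjusted p = 0.00174). Col18a1, its relative in the same class, was not called, with a log2 fold change of -0.07 (SE 0.29, adjusted p = 0.834). Col18a1 had 266 CPM in CAST MN, 366 to 405 CPM in CAS129 MN and 225 to 811 CPM in BL6 MN, against 328 and 225 CPM in CAS129 PSC, 227 and 167 CPM in CAST PSC and 526 and 550.3 CPM in BL6 PSC. These ranges overlapped, and Col18a1 was the leading collagen of PSC library 2 in both CAS129 and BL6.

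**Figure D2:**
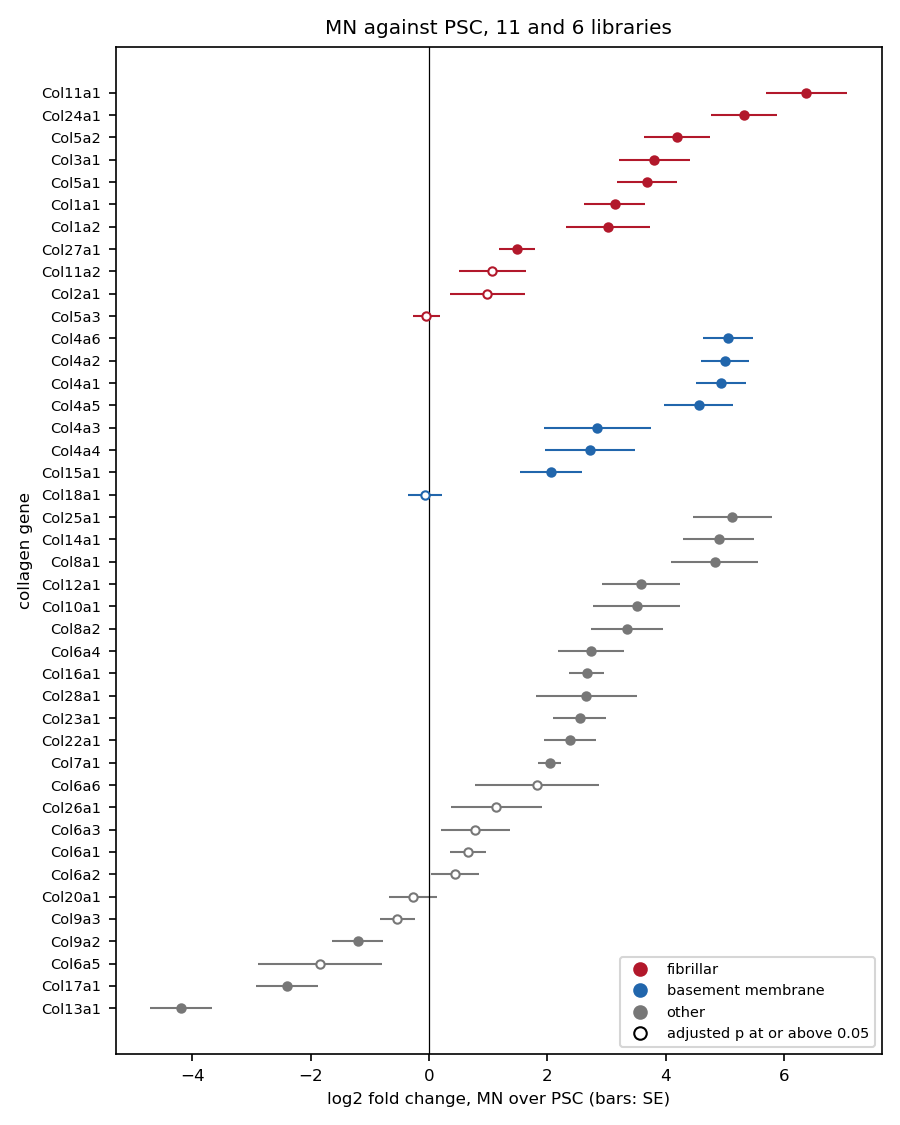
Log2 fold change of 42 collagen genes, MN over PSC, with bars of 1 SE and filled points for adjusted p under 0.05 (11 MN and 6 PSC libraries). Most fibrillar (red) and basement membrane (blue) genes lie right of 0, and Col13a1, Col17a1 and Col9a2 are the filled points left of it. Col19a1, with no count in PSC, is left out.

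Of the 24 other collagens tested, 13 rose, 3 fell and 8 were not called. Among the types that coat fibrils, Col12a1 rose with a log2 fold change of 3.59 (SE 0.66, adjusted p = 9.5e-05), Col14a1 with 4.90 (SE 0.60, adjusted p = 1.12e-06) and Col16a1 with 2.66 (SE 0.30). Col19a1 had no count in any PSC library, while its MN libraries held 0.779 to 5.60 CPM. Against a floor of 3 counts over the 6 PSC libraries, its mean of 2.61 CPM in the 11 MN libraries was at least 48.1-fold higher. Col8a1, a short-chain network collagen, rose by 4.83 (SE 0.73) and Col7a1, which forms anchoring fibrils under epithelia, by 2.04 (SE 0.20, adjusted p = 5.38e-08).

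The membrane-spanning collagens moved in both directions. Col25a1, a transmembrane collagen that mouse motor neurons need to innervate muscle, had a log2 fold change of 5.13 (SE 0.67, adjusted p = 2.17e-06), with 8.53 CPM in CAST MN, 5.36 to 8.02 CPM in CAS129 MN and 2.80 to 30.3 CPM in BL6 MN, against 0 and 0.391 CPM in CAS129 PSC, 0.333 and 0.501 CPM in CAST PSC and 0.0718 and 0.233 CPM in BL6 PSC. Col23a1 rose by 2.55 (SE 0.45). Col13a1, a transmembrane collagen of cell contacts, fell by 4.19 on the log2 scale (SE 0.52, adjusted p = 1.29e-06), and had 0 CPM in CAST MN, 0.510 to 3.98 CPM in CAS129 MN and at most 0.252 CPM in BL6 MN, against 11.4 and 15.3 CPM in CAS129 PSC, 3.22 and 4.76 CPM in CAST PSC and 4.24 and 4.34 CPM in BL6 PSC. Col17a1, the hemidesmosome collagen of epithelia, fell by 2.40 (SE 0.53, adjusted p = 0.000533). Col9a2, which decorates cartilage fibrils, fell by 1.21 (SE 0.43, adjusted p = 0.0166). That call was lost without CAS129 PSC library 2, where Col9a2 stood at 79.6 CPM (log2 fold change -0.78, adjusted p = 0.0803), and without all CAS129 libraries (-0.63, adjusted p = 0.269).

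The beaded-filament collagens of type VI, which link cells to fibrils, were called least evenly. Col6a1, Col6a2 and Col6a3, the chains of the common form, had log2 fold changes of 0.66 (SE 0.30, adjusted p = 0.0573), 0.44 (SE 0.41, adjusted p = 0.337) and 0.79 (SE 0.58, adjusted p = 0.231). Col6a4 rose by 2.74 (SE 0.56), and Col6a5 and Col6a6 were not called.

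Markers of some other cell types rose with these changes, while those of others moved both ways. The 12 mesenchyme and fibroblast markers other than collagens summed to 9507 to 41500 CPM in MN against 1875 to 3614 CPM in PSC. Of the 12, 11 were called higher and 1 lower, beside 36.1% and 38.5% of all genes tested. Fn1 alone stood at 6399 to 26930 CPM in MN and 1636 to 3318 CPM in PSC, so these sums mostly follow Fn1. Of the 12, Dcn, Fn1, Lum and Postn are also in the list of fibril-binding genes. All 12 reached 1 CPM in every library of CAST, CAS129 and BL6 MN, and 11 of 12 in 129 and 129CAS MN. Of these, the smooth muscle actin gene Acta2 stood at 1810 to 12950 CPM in MN against 1.37 to 145 CPM in PSC. The 5 smooth muscle and pericyte markers summed to 334 to 3842 CPM in MN against 30.3 to 58.2 CPM in PSC, with 4 higher and 0 lower. The 7 parietal endoderm markers, of a cell type rich in type IV collagen, had 4 higher and 0 lower. They summed to 144 to 497 CPM in MN against 31.1 to 92.7 CPM in PSC. Of 6 endothelial markers tested 3 were higher and 1 lower, with sums of 13.2 to 213 CPM in MN against 64.2 to 414 CPM in PSC. Of 5 glia markers tested 1 was higher and 2 lower, and of 5 chondrocyte markers 2 were higher and 2 lower. Of 2 notochord and floor plate markers tested 1 was higher and 1 lower. The 7 motor neuron markers summed to 77.9 to 420.3 CPM in MN against 0.587 to 5.96 CPM in PSC, most of it in MN from Slc18a3 and Slc5a7. Of the 7, 6 were called higher and 0 lower. Lhx3 was not called (0.99, SE 0.87, adjusted p = 0.309 by edgeR's test) and had 0 CPM in CAS129 and 129CAS MN. The 5 pluripotency markers summed to 276 to 762 CPM in CAS129 MN and at most 15.0 CPM in the other MN groups, against 2705 to 4077 CPM in PSC. Some called markers of these lists reached the 1 CPM needed for testing on 1 side only, so their calls are a description. Rgs5, Foxa2, Cdh5, Emcn, Gfap, Sox5, Shh, Isl1, Isl2 and Chat reached it in MN libraries only. Sox10 and Matn1 reached it in PSC libraries only. The part of other cells in the collagen changes was not tested. In bulk RNA, more cells of a type cannot be told apart from more RNA per cell.

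The change was then taken within each genotype, from 1 fit over all 8 groups. In CAST, with 1 MN library, 21 of 43 collagen genes rose and 1 fell (30.3% of all genes tested rose and 25.7% fell). In CAS129, 30 rose and 2 fell (30.4% and 23.9% of all genes), and in BL6, 29 rose and 3 fell (36.0% and 34.2% of all genes). Of those that rose, 3 in CAST, 6 in CAS129 and 5 in BL6 reached 1 CPM in MN libraries only, so their rise is a description. Without CAST PSC library 2, 13 were called in CAST. Of the 12 mesenchyme markers, 4 rose in CAST, 10 in CAS129 and 8 in BL6, with 1 lower in each. Col4a1 rose in each genotype, by a log2 of 2.74 in CAST (SE 0.42), 5.81 in CAS129 (SE 0.43) and 5.22 in BL6 (SE 0.41), and Col11a1 by 5.11 in CAST (SE 0.99), 7.87 in CAS129 (SE 1.07) and 6.26 in BL6 (SE 0.93). Without BL6 PSC library 1, the higher of the pair, the Col11a1 value in BL6 was 9.12, and without BL6 PSC library 2 it was 5.29. The type I chains were not called in CAST, where Col1a1 had a log2 fold change of 1.73 (SE 0.85, adjusted p = 0.0914) and Col1a2 0.72 (SE 1.08, adjusted p = 0.59), and neither was Col3a1 at 1.97 (SE 0.90, adjusted p = 0.0709). Col1a1 rose by 3.69 in CAS129 (SE 0.78) and 3.53 in BL6 (SE 0.74). Whether CAST differs from the other genotypes was not tested.

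Several members had PSC groups at or near 0. Against 3 counts over the group, Col19a1 was at least 14.1-fold higher in CAST MN, 15.0-fold in CAS129 MN and 18.5-fold in BL6 MN than in PSC of the same genotype. In CAST, Col13a1 had no count in the MN library and was at least 12.3-fold lower than in CAST PSC. Col28a1, a minor collagen of peripheral nerve in the mouse, had 4.25, 4.50 and 6.34 CPM in CAS129 MN and no count in either CAS129 PSC library, so it was at least 19.3-fold higher there. Col24a1 had 18.1 CPM in CAST MN, 22.5 to 31.3 CPM in CAS129 MN and 3.17 to 14.5 CPM in BL6 MN, against at most 0.444 CPM in CAST PSC, 0.157 CPM in CAS129 PSC and 0.718 CPM in BL6 PSC. Col25a1 rose in BL6 by a log2 of 5.95 (SE 1.08). Col19a1, Col24a1, Col25a1 and Col28a1 reached 1 CPM in MN libraries only, so their values here are a description. Col10a1, a network collagen of growing bone, rose in BL6 by a log2 of 5.92 (SE 1.10), at 2.77 to 22.7 CPM in BL6 MN against 0.287 and 0 CPM in BL6 PSC. That value was 9.90 without BL6 PSC library 1, which leaves no PSC count, and 4.92 without library 2. Among those that fell were Col13a1, with a log2 fold change of -2.78 in CAS129 (SE 0.67) and -4.80 in BL6 (SE 0.62), Col17a1 at -3.26 in BL6 (SE 0.64) and Col9a2 at -1.96 in CAS129 (SE 0.65), the last lost without CAS129 PSC library 2 (adjusted p = 0.22). Col6a5, a type VI chain, fell in BL6 (-4.01, SE 0.89), a call lost without BL6 PSC library 2 (-2.14, adjusted p = 0.128).

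A test of the difference asked whether the MN against PSC change was unequal in CAS129 and BL6. It called 6 of 43 collagen genes, or 14%, beside 18.2% of all genes tested. Col16a1, with a difference of 1.83 on the log2 scale (SE 0.46, adjusted p = 0.0111), changed more in CAS129. The Col16a1 call was lost without BL6 PSC library 1 (0.90, adjusted p = 0.106) and without CAS129 PSC library 2 (1.40, adjusted p = 0.14), and 3 of the 43 genes were called without the latter library. For Col4a1 the difference was 0.59 (SE 0.44, adjusted p = 0.392).

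Within PSC, genotypes were compared with 2 libraries each, which also differed by their number. In CAST against BL6, 0 of 35 tested were higher and 1 lower (5.74% and 4.81% of all genes). In CAS129 against BL6, 2 were called (25.8% of all genes), and in CAS129 against CAST, 1 was higher and 0 lower (2.27% and 11.7% of all genes). At an unadjusted p under 0.05 edgeR's test gave 7, 9 and 2 collagens, beside 26.9%, 37.9% and 27.0% of all genes. Without the filter on low counts, 7, 10 and 8 collagens were called. With a replicate block for the library number, more collagens were called in each comparison than in the main fit, as given in the closing section. The few calls here therefore do not show that the genotypes are alike. Col18a1 was lower in CAST PSC, at 227 and 167 CPM, than in BL6 PSC, at 526 and 550.3 CPM (log2 fold change -1.42, SE 0.32, adjusted p = 0.0276). Col15a1 was lower in CAS129 PSC, at 0.313 and 0.391 CPM, than in BL6 PSC, at 3.37 and 3.64 CPM (-3.24, SE 0.81, adjusted p = 0.0202). It was tested only because both BL6 libraries reached 1 CPM, so this difference is a description. Col13a1 was higher in CAS129 PSC, at 11.4 and 15.3 CPM, than in CAST PSC, at 3.22 and 4.76 CPM (1.75, SE 0.48, adjusted p = 0.0432), and than in BL6 PSC, at 4.24 and 4.34 CPM (1.68, SE 0.47, adjusted p = 0.0317). Both contrasts share the CAS129 libraries. With 2 libraries a group each of these calls ended when 1 library was left out. Col13a1 against BL6 lost its call in each of 6 such fits, Col13a1 against CAST in 4 and Col18a1 in 3. Adjusted p reached 0.265 for Col18a1 without CAST PSC library 2, 0.0934 for Col15a1 without CAS129 PSC library 1, 0.296 for Col13a1 against CAST without CAST PSC library 1 and 0.151 for Col13a1 against BL6 without CAS129 PSC library 2. The Col15a1 call stood without either CAST library, and without either BL6 library Col15a1 was not tested. The Col13a1 call against CAST was also lost with the genes at 0 in every hybrid library left out (adjusted p = 0.056).

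The PSC libraries numbered 1 and 2 stood apart in collagen level in every genotype. Col1a1 was at 729 CPM in number 1 and 176 CPM in number 2 of CAS129, 1800 and 889 CPM in CAST, and 1066 and 198 CPM in BL6. Of 35 collagen genes tested in PSC, 17 were higher in number 1 in all 3 genotypes, beside 15.9% of all genes tested, and 4 were lower in all 3, beside 18.3%. The 17 were Col1a1, Col1a2, Col3a1, Col5a1, Col5a2, Col11a1, Col11a2 and Col27a1 among fibrillar, Col4a2, Col4a5 and Col4a6 among basement membrane, and Col6a1, Col6a2, Col6a3, Col8a1, Col12a1 and Col16a1 among other collagens. Col12a1 had 169 and 19.8 CPM in CAS129, 337 and 62.5 CPM in CAST and 150 and 6.90 CPM in BL6. Col4a1 did not show it, at 122 and 124 CPM in CAS129, 184 and 196 CPM in CAST and 186 and 103 CPM in BL6. Of the 12 non-collagen mesenchyme markers 8 were also higher in number 1 in all 3 genotypes and 1 was lower. Acta2 had 99.6 and 1.37 CPM in CAS129, 136 and 5.89 CPM in CAST and 145 and 4.81 CPM in BL6. The part of this split in the collagen levels was not tested, and the labels do not say what the numbers stand for.

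**Figure D3:**
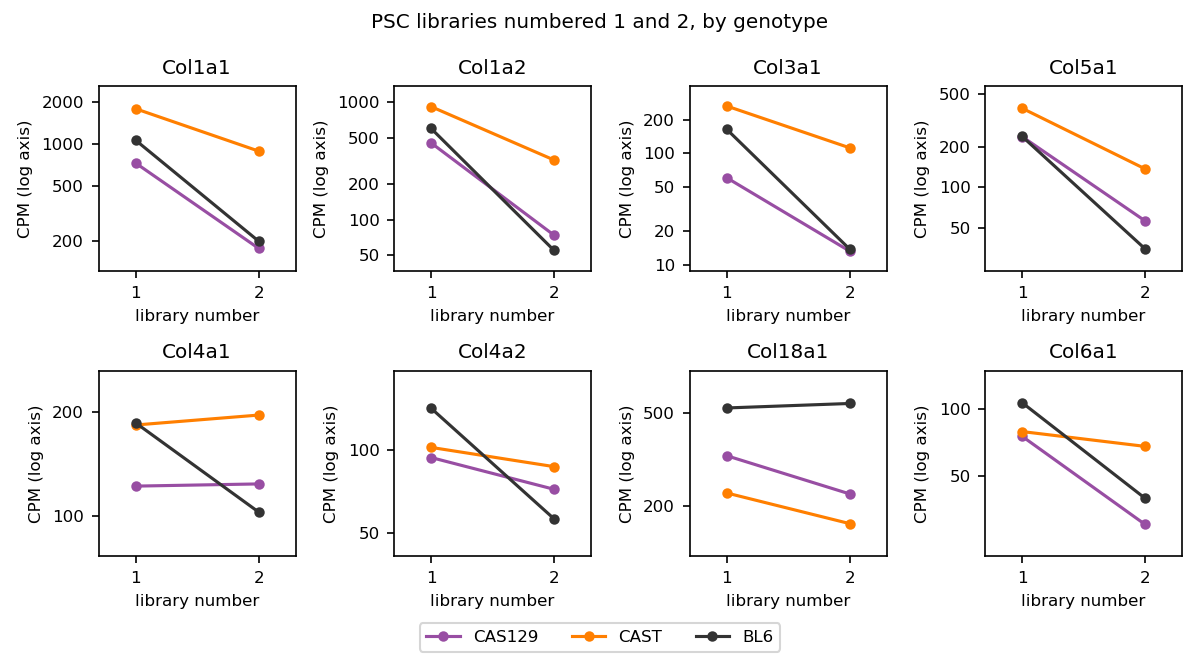
CPM (log axes) of 8 collagen genes in the PSC libraries numbered 1 and 2, with lines joining libraries of a genotype. Col1a1, Col1a2, Col3a1 and Col5a1 are higher in number 1 in all 3 genotypes, while Col4a1 and Col18a1 are not.

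With only the PSC libraries numbered 1 as the PSC group, 29 collagen genes and 69.9% of all genes were called in MN against PSC, and with only those numbered 2, 32 and 70.2%. These settings were chosen after seeing the data.

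MN of 129 and BL6 differed in both directions. Of 43 collagens tested, 8 were higher and 16 lower in 129 (18.3% and 18.1% of all genes), and the median log2 fold change was -0.40 over the collagens and 0.00 over all genes tested. Without 129 MN library 2, 10 collagens were called. The 129 libraries were also the deepest, at 44.57 and 41.75 M counts, and preparation cannot be told apart from strain. Their 12 mesenchyme markers summed to 20860 and 14970 CPM, against 14280 to 38470 CPM in BL6 MN, most of it Fn1. Of the 12, 0 were higher and 5 lower. Their 5 smooth muscle markers summed to 602 to 917 CPM, against 1095 to 3842 CPM in BL6 MN, with 0 higher and 3 lower. Of 7 motor neuron markers 4 were lower. What part this has in the collagen values was not tested.

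Lower in 129 MN were 6 of 11 fibrillar collagens, with 3 higher, and the type VI chains Col6a1, Col6a2 and Col6a3. Col6a3, the largest chain of type VI, had 3.42 and 2.81 CPM in 129 MN against 51.2 to 393 CPM in BL6 MN (median 167). The groups lay far apart, with a log2 fold change of -6.13 (SE 0.73, adjusted p = 2.89e-05), beside -1.68 for Col6a1 (SE 0.35) and -2.46 for Col6a2 (SE 0.59), the last lost without 129 MN library 2 (adjusted p = 0.0857). Col3a1 had 413 and 274 CPM in 129 MN against 814 to 2306 CPM in BL6 MN (-2.24, SE 0.35, adjusted p = 0.000276). Col15a1 had 1.90 and 1.24 CPM in 129 MN against 3.30 to 34.4 CPM in BL6 MN (-3.31, SE 0.84, adjusted p = 0.00823), a call lost without either 129 library (adjusted p = 0.0537 without library 1 and 0.1 without library 2). Col10a1 had 2.34 and 1.22 CPM in 129 MN against 2.77 to 22.7 CPM in BL6 MN (-2.54, SE 0.79, adjusted p = 0.0231), likewise lost without either (adjusted p = 0.0762 and 0.201).

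Col1a1 had 3110 and 1570 CPM in 129 MN against 4008 to 12130 CPM in BL6 MN, all of them higher (-1.77, SE 0.47, adjusted p = 0.0109), and Col1a2 showed -2.58 (SE 0.57, adjusted p = 0.00344). Without 129 MN library 2, the one with less of both, neither was called (adjusted p = 0.154 for Col1a1 and 0.0674 for Col1a2). Col4a1 was not called, at 4069 and 2634 CPM in 129 MN against 3231 to 7558 CPM in BL6 MN (-0.82, SE 0.30, adjusted p = 0.051, and 0.0496 with the genes at 0 in every hybrid library left out). Col11a1 was not called either (-0.40, SE 0.28, adjusted p = 0.297).

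A smaller group was higher in 129 MN. Col4a3, a chain of kidney and lung basement membranes, had 14.7 and 4.90 CPM in 129 MN against 0.102 to 1.89 CPM in BL6 MN (3.74, SE 0.63, adjusted p = 0.000515), and Col4a4, its neighbour and partner, 11.4 and 6.00 CPM in 129 MN against 0.0975 to 2.40 CPM in BL6 MN (3.06, SE 0.54, adjusted p = 0.000723). Col22a1, a collagen of tissue junctions, had 106 and 132 CPM in 129 MN against 3.83 to 23.7 CPM in BL6 MN (3.18, SE 0.45, adjusted p = 0.000138). Col2a1 had 294 and 179 CPM in 129 MN against 1.95 to 88.0 CPM in BL6 MN (3.40, SE 0.81, adjusted p = 0.00545), and that call was lost without 129 MN library 1 (adjusted p = 0.0576). In the same libraries 6 of 7 parietal endoderm markers were called higher, summing to 497 and 461 CPM in 129 MN against 145 to 299 CPM in BL6 MN. Notochord and floor plate markers summed to 25.3 and 52.5 CPM in 129 MN against 1.45 to 11.1 CPM in BL6 MN, nearly all Shh. Of 2 such markers tested, 1 was called higher and 0 lower. Chondrocyte markers summed to 42.0 and 44.1 CPM in 129 MN against 12.8 to 30.7 CPM in BL6 MN, with 3 of 4 tested called higher. Most of this sum in 129 MN was Sox5, at 21.7 and 23.2 CPM, and Sox6, at 13.3 and 16.2 CPM. Acan stood at 3.88 and 2.09 CPM in 129 MN, within the 1.72 to 4.98 CPM of BL6 MN, and Matn1 at 0.117 and 0.124 CPM. The part of these marker lists in these collagen values was not tested.

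In CAST MN, a single library assumed to vary like the other groups, 1 of 43 collagens was higher and 5 were lower than in BL6 MN (5.76% and 6.58% of all genes). Col4a1 had 1272 CPM in CAST MN against 3231 to 7558 CPM in BL6 MN (-2.16, SE 0.46, adjusted p = 0.00853), and Col4a2 863 CPM in CAST MN against 2058 to 4460 CPM in BL6 MN (-2.02, SE 0.41, adjusted p = 0.00682). Both were below every BL6 library. Col6a3 had 19.1 CPM in CAST MN against 51.2 to 393 CPM in BL6 MN (-3.46, SE 0.86, adjusted p = 0.0203). Col8a1 had 173 CPM in CAST MN against 358 to 629 CPM in BL6 MN (-1.65, SE 0.33), and Col7a1 45.9 CPM in CAST MN against 92.9 to 149 CPM in BL6 MN (-1.41, SE 0.35). Col9a3, a minor cartilage chain, was higher, at 17.5 CPM in CAST MN against 3.27 to 11.3 CPM in BL6 MN (1.55, SE 0.42, adjusted p = 0.03). Col1a1 and Col1a2 were not called (-0.79, adjusted p = 0.409, and -2.18, adjusted p = 0.0841). Of the 6 calls, those of Col6a3 and Col8a1 were kept under every alternative. Without BL6 MN library 2, 12 collagens were called. The mesenchyme markers of CAST MN summed to 9507 CPM, most of it Fn1, below every BL6 MN library. Of the 12, 4 were called lower and 0 higher. The smooth muscle markers summed to 334 CPM in CAST MN against 1095 to 3842 CPM in BL6 MN, with 3 of 5 lower. Their part was not tested.

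In CAS129 MN, 14 of 43 collagens were higher and 6 lower than in BL6 MN (27.0% and 32.5% of all genes). Col14a1 had 158, 135 and 173 CPM in CAS129 MN against 9.37 to 52.7 CPM in BL6 MN (2.55, SE 0.39, adjusted p = 9.16e-05), with no overlap. Col4a6 had 59.3, 50.2 and 60.8 CPM in CAS129 MN against 7.12 to 24.6 CPM in BL6 MN (1.93, SE 0.31, adjusted p = 0.000133). Col6a5, Col13a1 and Col28a1 were higher by a log2 of 4.21 (SE 0.76), 3.56 (SE 0.74) and 3.22 (SE 0.46), from levels of at most 1.06 CPM in BL6 MN. Col13a1 and Col28a1 reached 1 CPM in MN libraries of CAS129 only, so their difference is a description. Col28a1 had no count and Col6a5 0.783 and 0 CPM in CAS129 PSC. Markers differed too: 5 of 5 pluripotency markers were higher in CAS129 MN, all 6 neuron markers and 5 of 7 motor neuron markers were lower, 2 of 5 smooth muscle markers were higher, 3 of 7 parietal endoderm markers were higher and 1 lower, and 2 of 12 mesenchyme markers were higher and 3 lower. The neuron markers summed to 499.5 to 622.6 CPM in CAS129 MN against 1126 to 3665 CPM in BL6 MN. Their part in the collagen values was not tested.

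Lower in CAS129 MN were Col7a1, at 32.8, 24.9 and 28.5 CPM against 92.9 to 149 CPM in BL6 MN (-2.12, SE 0.23, adjusted p = 4.38e-06), and Col15a1, at 1.19, 0.865 and 1.68 CPM against 3.30 to 34.4 CPM in BL6 MN (-3.63, SE 0.81, adjusted p = 0.00191). Col5a3, a type V chain, had 22.1, 18.2 and 18.5 CPM in CAS129 MN against 31.0 to 48.9 CPM in BL6 MN (-1.08, SE 0.20, adjusted p = 0.000471). Col6a3 was lower as well (-1.49, SE 0.46, adjusted p = 0.0127), a call lost without CAS129 MN library 1 (adjusted p = 0.0559) or library 2 (adjusted p = 0.06). Col26a1 was lower at 1.02 to 4.48 CPM in CAS129 MN against 2.80 to 22.8 CPM in BL6 MN (-1.57, SE 0.61, adjusted p = 0.0408), a call lost in 7 of 14 fits that left out 1 library, with adjusted p up to 0.163 without CAS129 MN library 1. Col1a1 (-0.43, SE 0.37, adjusted p = 0.336) and Col4a1 (0.25, SE 0.25, adjusted p = 0.406) were not called. All 3 comparisons of MN genotypes share the BL6 libraries. The single 129CAS MN library had 1545 CPM of Col1a1, 2211 CPM of Col4a1, 2.72 CPM of Col6a3, 1.07 CPM of Col15a1 and 33.5 CPM of Col4a6.

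**Figure D4:**
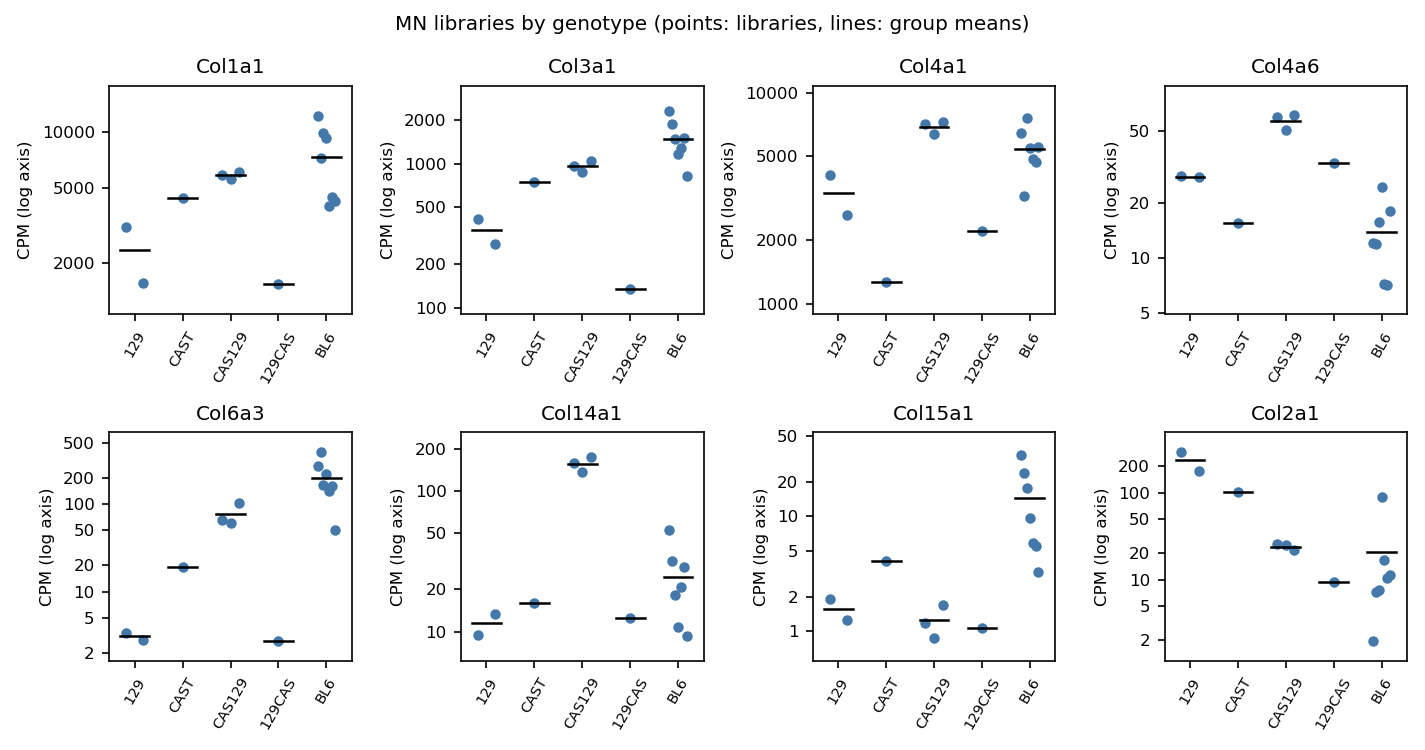
CPM (log axes) of 8 collagen genes in MN libraries by genotype, with a point per library and a line at the group mean. By group mean, Col6a3 and Col15a1 are highest in BL6, Col14a1 and Col4a6 in CAS129 and Col2a1 in 129.

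Chains that assemble together kept unequal ratios of counts between genotypes. Per Col1a1 count, Col1a2 gave 0.323 and 0.348 counts in 129 MN, 0.227 in CAST MN, 0.458 to 0.537 in CAS129 MN, 0.334 in 129CAS MN and 0.511 to 0.718 in BL6 MN, against 0.278 to 0.618 in PSC. Per Col4a1 count, Col4a2 gave 0.566 and 0.582 in 129 MN, 0.678 in CAST MN, 0.817 to 0.857 in CAS129 MN, 0.778 in 129CAS MN and 0.590 to 0.646 in BL6 MN, against 0.443 to 0.768 in PSC. Every MN library of the hybrids was above every MN library of the inbred strains in the Col4a2 ratio. Per Col6a1 count, Col6a3 gave 0.0914 and 0.0982 in 129 MN, 0.204 in CAST MN, 0.417 to 0.471 in CAS129 MN, 0.0872 in 129CAS MN and 1.12 to 2.79 in BL6 MN, against 0.321 to 1.03 in PSC. Per Col5a1 count, Col5a2 gave 2.08 in 129CAS MN and at most 0.966 in any other library. These ratios are of counts and not per length, and no test was run on them.

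**Figure D5:**
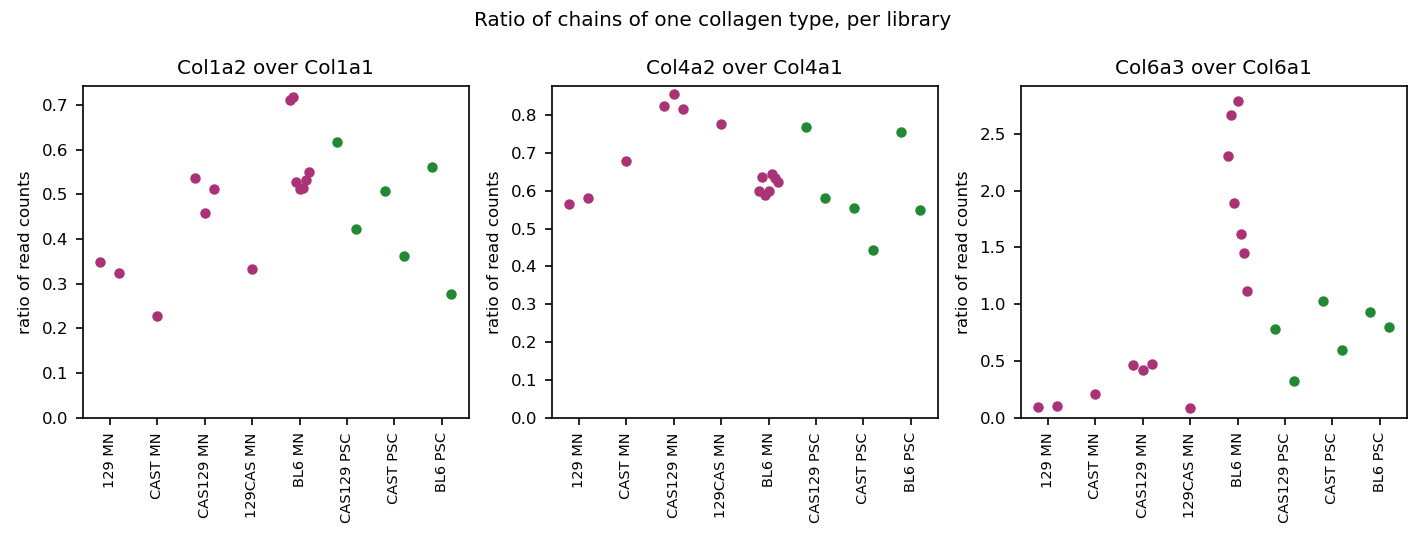
Ratio of read counts of chains of 1 collagen type in each library, for Col1a2 over Col1a1, Col4a2 over Col4a1 and Col6a3 over Col6a1. MN groups are left of PSC groups. Col6a3 over Col6a1 is 1.12 to 2.79 in BL6 MN and at most 0.471 in MN of the other genotypes.

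Genes that process, bind or sense collagen were counted in MN against PSC from lists. Beside these counts, here and in the next paragraph, 36.1% of all genes tested rose and 38.5% fell, with a median log2 fold change of -0.05. A call as such was the common case. Of 18 genes of chain modification and folding tested, 11 rose and 2 fell in MN, with a median log2 fold change of 0.89. Mia3, counted among the 11, had no count in any hybrid library, against 63.3 to 249.6 CPM in the others. P3h2, also among the 11, reached 1 CPM in MN libraries only, so its rise is a description. Those with most counts among the called were P4hb, a subunit of prolyl 4-hydroxylase, which rose by 0.58 (SE 0.18), Plod2, a lysyl hydroxylase, by 2.04 (SE 0.31), and the chaperone Fkbp10 by 3.38 (SE 0.38). Of 14 genes of propeptide removal and cross-linking, 9 rose and 1 fell (median 2.93), among them the lysyl oxidases Loxl2 by 4.84 (SE 0.50) and Lox by 2.84 (SE 0.55) and the peroxidasin gene Pxdn, which cross-links type IV collagen, by 3.63 (SE 0.29). Of 8 receptors tested, 7 rose and 0 fell (median 3.14), with the integrin subunit Itgb1 at 3.16 (SE 0.30) and the discoidin receptor Ddr2 at 4.11 (SE 0.58).

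Of 10 fibril-binding genes tested, 7 rose and 0 fell (median 2.62), led in level by the fibronectin gene Fn1 at 2.71 (SE 0.33), Sparc at 3.02 (SE 0.37) and the proteoglycan gene Bgn at 2.47 (SE 0.42). Of 7 partners in the basement membrane, 4 rose and 1 fell (median 1.32). The perlecan gene Hspg2 rose by 1.80 (SE 0.26) and the nidogen gene Nid1 by 2.19 (SE 0.46), while Nid2, the other nidogen, fell by 2.50 on the log2 scale (-2.50, SE 0.31, adjusted p = 1.43e-06).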

How the data were processed

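The authors deposited 1 table of raw counts, in whole numbers, for each gene and library. Per the submitters' processing notes, STAR and the build GRCm38 (mm10) were used. The counting program, its annotation, its strand setting and any genome other than GRCm38 for CAST, 129 or the hybrids were not given in the sources used here. Names tied 20 of 28 count columns to samples, the other 8 were left unused, and 7 samples without a matched column were not analysed here. Gene names and positions came from GENCODE M21 on GRCm38 by identifier, with 27030 matched and 41 not. Serpinh1 and Fkbp14 had no matched identifier and are not reported here.

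Tests used edgeR 4.0.16 in R 4.3.3 (TMM scaling, glmQLFit, glmQLFTest, 2-sided, Benjamini-Hochberg over all genes, threshold 0.05) on genes reaching 1 CPM in 2 or more of the fitted libraries. SE is the absolute log2 fold change over the square root of F. CPM used TMM-scaled library sizes. The code was tested on simulated data. MN against PSC had genotype as a term. Within-genotype changes came from 1 fit over 8 groups, PSC genotypes from the 6 PSC and MN genotypes from the 14 MN libraries. Alternatives were RLE scaling, no filter, DESeq2 1.42.0, a replicate block, leaving out each library, another gene length and, added after seeing the data, PSC libraries of 1 number only, no CAS129 libraries, and no genes at 0 in every hybrid library.

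Named were the main chains of types I to VI, XI, XII, XIV, XV and XVIII, up to 4 called members per direction and comparison with the largest change at a mean of 1 CPM, and up to 3 called members of each other list with most counts. Others were chosen after their values were seen. Members and lists were chosen with earlier results of these data known. Replicates may share a culture, since no label separates them, so p-values reflect the spread between libraries, which may be technical. CAST MN is 1 library and was assumed to vary like the other groups. Total counts per library limit precision least for the deep 129 libraries and most for CAS129.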

Additional observations from a re-analysis of the deposited data

Results flagged for a closer look

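In 5 of 36 collagen genes with a mean of at least 1 CPM in BL6 MN, 1 of the 7 libraries lay far from the others. The cutoff used flags about 1 in 20 by chance for values with a normal spread and independent genes. These CPM were not on a log scale and library 2 recurs, so no excess is read from the 5 genes. Library 2 was high in 4 of them, with 18.2 CPM of Col23a1 against at most 7.80 CPM in the other libraries, 30.3 CPM of Col25a1 against at most 12.0 CPM, 22.8 CPM of Col26a1 against at most 8.12 CPM and 11.3 CPM of Col9a3 against at most 5.67 CPM. Library 4 had 88.0 CPM of Col2a1, against at most 17.01 CPM in the others. Library 2 was also apart in other markers, with 142 CPM of the glial gene Gfap against at most 10.2 CPM in the other BL6 MN libraries, a glia marker sum of 249 CPM against at most 40.3 CPM and a neuron marker sum of 3665 CPM against at most 2119 CPM. Their part was not tested.

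The MN against PSC change differed between CAS129 and BL6, by a test of the difference itself, in 6 of 43 collagen genes. That is 14%, beside 18.2% of all genes tested, so such a call was no more common among collagens. CAS129 PSC had 1.41 and 0 CPM of Col11a2 and 0.783 and 0 CPM of Col6a5, so their differences rest on levels near 0. Col11a2 differed by a log2 of 3.33 (SE 0.94, adjusted p = 0.0217), Col16a1 by 1.83, Col27a1 by 1.46 (SE 0.49, adjusted p = 0.0491) and Col6a5 by 7.60 (SE 1.66, adjusted p = 0.00492). Col28a1 differed by 8.06, a fitted value that is no bound since CAS129 PSC had no count, and Col26a1 by -4.07 (SE 1.11, adjusted p = 0.0177). The Col27a1 call was lost in 17 of 20 fits that left out 1 library, and with the genes at 0 in every hybrid library left out (adjusted p = 0.0903). Col11a2 was lost without BL6 PSC library 2, CAS129 MN library 2 or 3, or CAS129 PSC library 2 (adjusted p up to 0.124). Col26a1 was lost without BL6 PSC library 2 or CAS129 PSC library 1 (up to 0.0817), and Col28a1 without BL6 PSC library 1 (then with no count in PSC of either genotype) or either CAS129 PSC library (up to 0.0915). Col6a5 kept its call in all 20, and lost it with the PSC libraries numbered 1 alone (4.58, adjusted p = 0.145).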

How the results depend on the processing

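Of 177 called values of collagen genes, 107 kept their call under every alternative tried and 0 changed sign, and of the 31 calls in MN against PSC 27 were kept. The count of 31 was 31 to 35 when 1 library was left out, and 29 with the PSC libraries numbered 1 alone. Not-called values changed sign for Col18a1 (-0.07, 0.105 with PSC number 2 alone and -0.1835 to 0.1392 when 1 library was left out), Col6a2 (-0.0475 with PSC number 1 alone and -0.0084 without all CAS129 libraries) and Col6a3 (-0.0781 likewise).

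Without a filter on low counts, collagens called were 7 for CAST against BL6 PSC (2682 genes in all), 10 for CAS129 against BL6 PSC and 8 for CAS129 against CAST PSC. DESeq2 called 4 for CAS129 against BL6 PSC, 2 for CAS129 against CAST PSC, 10 for CAST against BL6 MN and 2222 genes in all for CAST against BL6 PSC. Same-numbered libraries did not deviate together throughout. In PSC the correlations of deviations were 0.345 for BL6 and CAST, 0.457 for CAST and CAS129 and -0.019 for BL6 and CAS129. The main tests did not take the numbers as pairs, so any shared effect of the number stayed in their spread. The replicate block called 8, 6 and 5 collagens in the 3 PSC comparisons, in the order above, 766 genes in CAST against BL6 MN, where it dropped Col4a1 (adjusted p = 0.0518), Col4a2 (0.0509), Col7a1 (0.0513) and Col9a3 (0.189) from the 6 collagens and called 5 in all, and 1887 in the difference between CAS129 and BL6. That difference had 1601 genes with PSC number 1 alone. With the genes at 0 in every hybrid library left out, chosen after seeing the data, CAS129 against CAST PSC had 0 collagens called, against 2 at an unadjusted p under 0.05 by edgeR in the full table, and the other counts of collagens moved by at most 1.

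Leaving out 1 library gave these ranges of called collagens and called genes. CAST against BL6 PSC had 0 to 3 and 226 to 2105, CAS129 against BL6 PSC 0 to 2 and 2132 to 3657, and CAS129 against CAST PSC 0 to 1 and 1084 to 2476. CAST against BL6 MN had 6 to 12 and 1550 to 3805, 129 against BL6 MN 10 to 25 and 2800 to 6324, the difference 3 to 6 and 1409 to 3664, and MN against PSC within CAST 13 to 25 collagens. The causes were not tested. In the PSC fit 9 of 44 collagens did not reach 1 CPM in 2 libraries.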
